A study of Mus musculus with 8 samples.

Results

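The genes described here are the 10 mouse genes that build the light response of cone photoreceptors: Opn1sw, Opn1mw, Arr3, Gnat2, Gnb3, Gngt2, Pde6c, Pde6h, Cnga3 and Cngb3. They were chosen by name, and all 10 were found among the 18058 genes of the table. Retinae came from 4 adult mice of the inbred strain 129S2/SvPasCrl (WT) and from 4 adult quadruple KO mice, in which knockout constructs of the matrix genes Bcan, Ncan, Tnc and Tnr were combined by crossing single KO lines. The knockouts are carried in the whole animal and are not limited to a retinal cell type. Total RNA was sequenced in 8 retina samples, and the libraries are named A to D within each genotype. Retinae were pooled for RNA extraction, and the sources used here do not say which retinae went into each library, so p-values measure the spread between these samples. The study used mice of both sexes, but the sex and the age behind each library are not given in the sources used here. Values are normalized counts, that is, estimated read counts per gene that the authors divided by the normalization factors of DESeq2. Differences are given on the scale of log2(normalized count + 1) as quadruple KO minus WT, with the standard error (SE), the 95% interval and the Benjamini-Hochberg adjusted p of limma over the 17636 genes that had a mean of 10 or more. The call threshold was an adjusted p of 0.05.

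Cones carry daylight and colour vision, and they are a small minority of the photoreceptors in the mouse retina, where rods dominate. Light changes an opsin, the opsin activates the G protein transducin, and transducin releases the brake on a phosphodiesterase (PDE6) that destroys cyclic GMP. Cation channels that are held open by cyclic GMP then close, and arrestin ends the activity of the opsin. Each cone protein has a counterpart in rods that is encoded by another gene.

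Of the 10 cone genes, Pde6c was the only one called, and it was higher in the quadruple KO. Pde6c encodes the catalytic subunit of the cone phosphodiesterase. Its mean rose from 725.8 ± 99.8 (SD, n = 4) in WT to 1905 ± 395 (SD, n = 4) normalized counts in the quadruple KO, a ratio of 2.62. None of the other 9 genes passed the test in either direction, and none of them had an unadjusted p under 0.05, which 16.6% of all genes tested had. Over all genes tested 0.437% were called (77 genes), 0.261% higher and 0.176% lower. Of the 10 genes 5 had a positive and 5 a negative log2 difference, and their median was 0.014, beside -0.00018 over all genes tested. Without Pde6c the median was -0.0044.

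**Figure D1:**
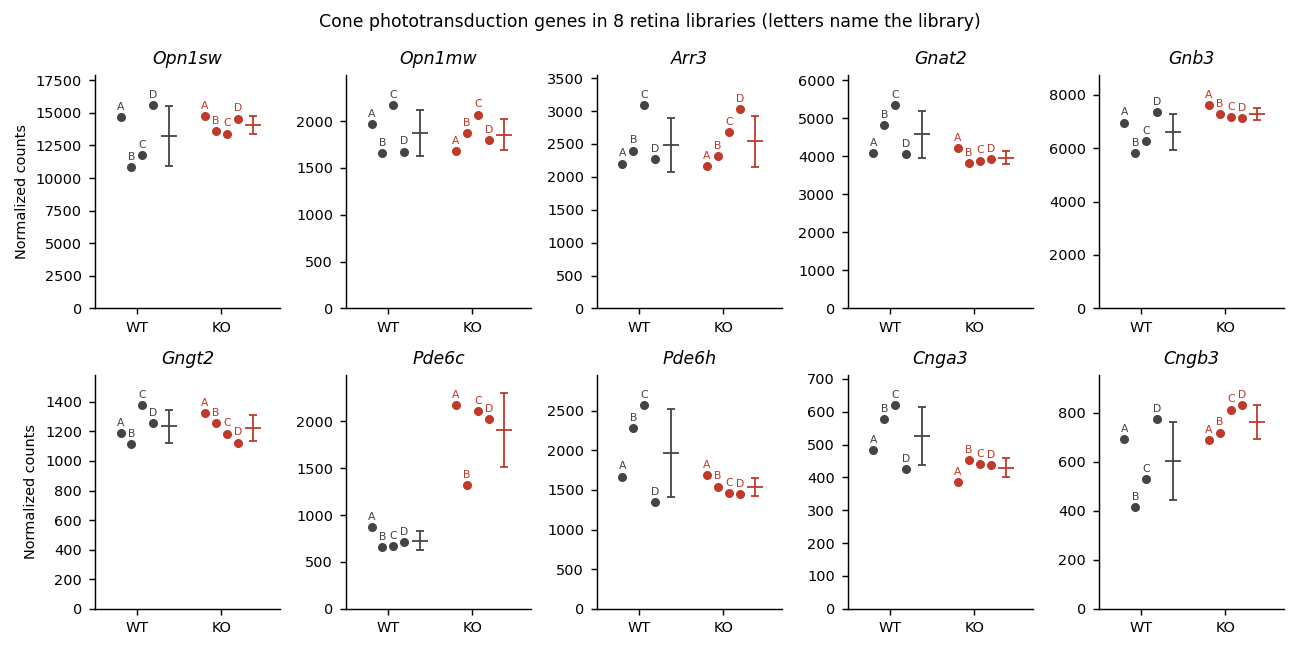
Normalized counts (y axis, from 0) of the 10 cone genes in 4 WT and 4 quadruple KO libraries, with a point per library, its letter, and the mean ± SD beside each group. Pde6c is the only panel in which the genotypes do not overlap, with WT between 655.0 and 871.4 and quadruple KO between 1321 and 2172.

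The deposited libraries differed in ways that touch these genes. The summed normalized counts ran from 36.1 M to 42.2 M per library (M for 1e6), and the worth of 1 read, estimated from the steps between low values, ran from 0.714 to 1.77 normalized counts, which gives depths of about 23.9 M to 52.1 M reads. WT B and WT C stood apart from the other 6 libraries. They had the lowest estimated depths, 23.9 M and 27.4 M reads against 36.2 M or more, and the highest summed counts, 42.2 M and 40.7 M against 37.2 M or less. Mitochondrially encoded mRNAs made up 0.402% and 0.341% of their normalized counts, whereas WT A had 1.28%, WT D 1.64% and the quadruple KO libraries 1.33% to 1.47%. Markers of the labelled tissue were present, with rhodopsin at 639690 to 1016730 normalized counts. Of the targeted genes, Ncan lay at 569.4 to 788.7 in WT and at 0 to 0.853 in the quadruple KO, Bcan at 197.2 to 326.5 and 11.5 to 22.1, and Tnr at 5578 to 6317 and 2374 to 2580. Tnc did not separate the genotypes, with 881.2 to 1592 in WT and 1024 to 1249 in the quadruple KO (log2 difference -0.071, adjusted p = 0.826). A whole-gene count does not show whether a transcript still encodes a protein. The lowest value of any cone gene in any library was 386.5, so none of them was near the detection limit.

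The cone opsins set the wavelength to which a cone responds, and the upstream sequences of both are shown here with that of cone arrestin, because the set includes windows with and without a motif bound by photoreceptor homeodomain factors such as Crx. The sequences are from the RefSeq promoter table, which was made on an earlier mouse build, and were placed on GRCm39 by exact match. Capitals mark TAATCC or TAATCT on either strand. The 2 motifs share their opening letters, and copies on opposite strands can overlap.
Opn1sw, chr6:29380515-29380762, minus strand: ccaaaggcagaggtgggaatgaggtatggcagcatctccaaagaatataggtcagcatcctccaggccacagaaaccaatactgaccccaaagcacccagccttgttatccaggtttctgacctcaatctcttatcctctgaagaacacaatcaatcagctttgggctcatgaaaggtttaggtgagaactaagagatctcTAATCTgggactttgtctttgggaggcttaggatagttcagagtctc
Opn1mw, chrX:73170822-73171069, plus strand: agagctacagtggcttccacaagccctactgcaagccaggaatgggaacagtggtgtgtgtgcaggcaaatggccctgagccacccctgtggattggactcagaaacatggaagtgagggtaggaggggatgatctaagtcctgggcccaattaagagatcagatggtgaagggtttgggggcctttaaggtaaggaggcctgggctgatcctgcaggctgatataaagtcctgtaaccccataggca
Arr3, chrX:99648853-99649100, plus strand: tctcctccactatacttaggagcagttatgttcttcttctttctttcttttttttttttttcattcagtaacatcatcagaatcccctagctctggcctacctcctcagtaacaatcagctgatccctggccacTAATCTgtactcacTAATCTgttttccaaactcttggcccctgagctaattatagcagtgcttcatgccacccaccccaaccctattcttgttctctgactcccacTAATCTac
Each stretch holds 248 bases that end before the exon at the RefSeq start. The Opn1sw stretch lies in an intron of a longer annotated Opn1sw transcript, and the others lie outside the exons of their gene. Arr3 holds 3 copies of TAATCT, Opn1sw holds 1, and Opn1mw holds neither motif. The RefSeq table lists 6 of the 10 genes with 7 windows of 300 bases, and 3 of the 6 genes hold at least 1 of the motifs, Gnat2 being the third with 1 TAATCC. Of all 32851 windows in the table, 7.06% hold TAATCC, 8.19% hold TAATCT and 14.4% hold either. The genes without a window here are Pde6c, Gnb3, Gngt2 and Cngb3.

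Opn1sw, the short-wavelength opsin (ENSMUSG00000058831.14, chr6:29376670-29388467, minus strand), was the most abundant cone transcript. WT A, B, C and D held 14677, 10819, 11752 and 15597 normalized counts, and the quadruple KO libraries held 14747, 13576, 13403 and 14551. WT B and WT C were the lowest of the 8 libraries, and the genotypes overlapped. The log2 difference was 0.11 (SE 0.12, 95% interval -0.16 to 0.37, limma adjusted p = 0.595). Opn1mw, the middle-wavelength opsin (ENSMUSG00000031394.12, chrX:73171070-73194366, plus strand), had 1967, 1662, 2172 and 1674 in WT A to D and 1678, 1876, 2071 and 1801 in the quadruple KO. The WT range enclosed all 4 quadruple KO libraries. Its log2 difference was -0.0044 (SE 0.11, 95% interval -0.25 to 0.24, limma adjusted p = 0.981).

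The balance of the opsins within a library does not depend on a scaling factor shared by all genes of that library. The ratio of Opn1sw to Opn1mw was 7.46, 6.51, 5.41 and 9.32 in WT A to D and 8.79, 7.24, 6.47 and 8.08 in the quadruple KO. All quadruple KO ratios lay inside the WT range, and the log2 ratio differed by 0.11 (exact two-sided permutation test, p = 0.6, where the smallest p of 4 against 4 libraries is 0.0286). Per kilobase of the main transcript, Opn1sw made up 73.4% to 82.6% of both opsins in WT and 76.7% to 81.7% in the quadruple KO. Both opsins together came to 3.79% to 4.22% of rhodopsin per kilobase in WT and to 3.29% to 3.76% in the quadruple KO. These last ranges do not overlap, rhodopsin itself had a log2 difference of 0.26 (limma adjusted p = 0.316), and the comparison was chosen after the values were seen and is given without a test. Arr3, cone arrestin (ENSMUSG00000060890.12, chrX:99649101-99662099, plus strand), had 2200, 2398, 3091 and 2264 in WT A to D and 2162, 2309, 2676 and 3024 in the quadruple KO. WT C was the highest library, ahead of KO D, and the genotypes overlapped over nearly their whole range. The log2 difference of Arr3 was 0.032 (SE 0.14, 95% interval -0.28 to 0.34, limma adjusted p = 0.900).

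Cone transducin is made of the alpha subunit Gnat2, which carries the signal from opsin to PDE6, and of the beta and gamma subunits Gnb3 and Gngt2. Gnat2 (ENSMUSG00000009108.16, chr3:107999932-108008748, plus strand) had 4088, 4809, 5343 and 4062 normalized counts in WT A to D and 4215, 3824, 3886 and 3922 in the quadruple KO. WT B and WT C were the highest libraries, while WT A and WT D lay among the quadruple KO values. The log2 difference was -0.20 (SE 0.097, 95% interval -0.42 to 0.020, limma adjusted p = 0.308), and it was -0.042 when WT was limited to libraries A and D. Gnb3 (ENSMUSG00000023439.12, chr6:124811202-124817238, minus strand) had 6951, 5815, 6264 and 7338 in WT A to D and 7608, 7269, 7163 and 7106 in the quadruple KO. Here WT B and WT C were the lowest libraries. Its log2 difference was 0.15 (SE 0.082, 95% interval -0.035 to 0.34, limma adjusted p = 0.328), and 0.028 with WT A and WT D alone. Gnb3 is also made by ON bipolar cells, of whose 9 listed markers none was called, with differences from -0.24 for Rgs11 to 0.42 for Pcp2, so its counts here are not those of cones alone. Gngt2 (ENSMUSG00000038811.14, chr11:95725953-95736565, plus strand) had 1189, 1115, 1377 and 1257 in WT A to D and 1327, 1256, 1185 and 1124 in the quadruple KO, with almost the same range in both genotypes. Its log2 difference was -0.012 (SE 0.089, 95% interval -0.21 to 0.19, limma adjusted p = 0.943).

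In the phosphodiesterase of cones, Pde6c cleaves cyclic GMP and Pde6h is the inhibitory gamma subunit that transducin displaces. Pde6c (ENSMUSG00000024992.14, chr19:38121229-38172406, plus strand, 22 exons in its main transcript) had 871.4, 655.0, 667.1 and 709.8 normalized counts in WT A to D and 2172, 1321, 2107 and 2021 in the quadruple KO. The lowest quadruple KO value exceeded the highest WT value, and KO B was the lowest of its genotype. The log2 difference was 1.37 (SE 0.17, 95% interval 0.998 to 1.75, limma adjusted p = 0.00498), a fold of 2.59 with an interval of 1.998 to 3.36. The exact two-sided permutation test gave p = 0.0286, the smallest that 4 against 4 libraries allow. Pde6c was the 1 cone gene of 10 without overlap, a share close to that of all genes tested, of which 9.74% did not overlap between the genotypes, 6.16% with higher and 3.58% with lower values in the quadruple KO. In bulk tissue, fewer or more cells of a type and less or more RNA per cell cannot be told apart. Pde6h (ENSMUSG00000064330.10, chr6:136900830-136945863, plus strand) went the other way in its mean without passing the test: it had 1668, 2285, 2568 and 1351 in WT A to D and 1690, 1543, 1457 and 1447 in the quadruple KO. WT B and WT C were again the highest libraries, and WT A and WT D enclosed 3 of the 4 quadruple KO values. Its log2 difference was -0.32 (SE 0.18, 95% interval -0.73 to 0.098, limma adjusted p = 0.344), and 0.028 with WT A and WT D alone.

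Pde6c was also higher in the quadruple KO relative to other subunits within each library. The ratio of Pde6c to Pde6h was 0.522, 0.287, 0.260 and 0.525 in WT A to D and 1.29, 0.856, 1.45 and 1.40 in the quadruple KO. Against Pde6a, a catalytic subunit of the rod enzyme, it was 0.0103, 0.00805, 0.00750 and 0.00866 in WT and 0.0244, 0.0158, 0.0224 and 0.0226 in the quadruple KO. Against Pde6b, the other rod catalytic subunit, it ran from 0.00788 to 0.0138 in WT and from 0.0204 to 0.0316 in the quadruple KO. The genotypes did not overlap in these 3 ratios. The log2 differences were 1.69 for Pde6h, 1.29 for Pde6a and 1.45 for Pde6b. These ratios were chosen after the values were seen and carry the difference of Pde6c itself, so they are given as a description without a test. The level of Pde6c per kilobase of the main transcript was also set against the summed levels per kilobase of the other 7 non-opsin cone genes. It came to 3.97%, 3.02%, 2.68% and 3.15% of that sum in WT A to D and to 9.41%, 5.93%, 9.23% and 8.64% in the quadruple KO.

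**Figure D2:**
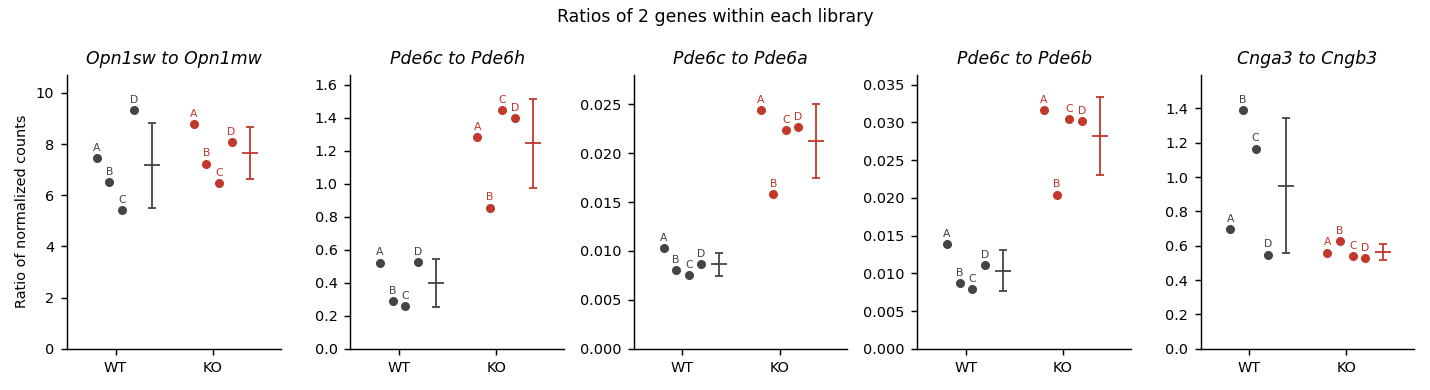
Ratios of normalized counts of 2 genes within each library (y axes from 0, no unit), with a point per library, its letter, and the mean ± SD beside each group. The 3 ratios with Pde6c on top separate the genotypes, whereas those of the opsins and of the channel subunits overlap.

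Genes near Pde6c were not called with it. Of the 16 tested genes that lie within 1 Mb of Pde6c none was called. Their log2 differences ran from -1.15 for Gm8717 to 0.49 for Fra10ac1, with a median of -0.12 and a lowest limma adjusted p of 0.263. Fra10ac1 did not overlap between the genotypes, with 299.1 to 377.6 normalized counts in WT and 400.5 to 535.6 in the quadruple KO. Of all genes tested, 6.16% did not overlap with higher values in the quadruple KO. The part of the region in the difference of Pde6c was not tested. No targeted gene lies on chromosome 19. Gm32440 on the opposite strand overlaps the Pde6c model and was not analysed here. The library kit keeps the strand, but whether the quantification used it is not stated in the sources used here. For the other 9 genes, 1 tested neighbour within 1 Mb was called, Vwf beside Gnb3 (log2 difference -2.29, limma adjusted p = 0.000539). Opn1sw overlaps Calu, Gngt2 overlaps Abi3 and Pde6h overlaps Arhgdib, and none of these was called. Gm6758 overlaps Opn1mw, Gm69908 overlaps Cnga3, and Gm68928 and Gm11877 overlap Cngb3, and these models were not analysed here. Some targeted genes lie on the chromosome of another cone gene. Between gene starts, Bcan lies 20.1 Mb from Gnat2, Tnc 44.6 Mb from Cngb3 and Tnr 122 Mb from Cnga3.

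The channel of the cone outer segment consists of Cnga3 and Cngb3, and their means lay on opposite sides of 0 without passing the test. Cnga3, the principal subunit (ENSMUSG00000026114.15, chr1:37253515-37304128, plus strand), had 484.2, 577.8, 619.4 and 425.4 normalized counts in WT A to D and 386.5, 451.7, 440.6 and 438.2 in the quadruple KO. WT D fell among the quadruple KO libraries and WT B and WT C were the highest. Its log2 difference was -0.28 (SE 0.13, 95% interval -0.57 to 0.0058, limma adjusted p = 0.302), the lowest unadjusted p of the 9 genes at 0.0539. Cngb3, the modulatory subunit (ENSMUSG00000056494.8, chr4:19280850-19510623, plus strand), had 692.6, 415.9, 530.9 and 775.1 in WT A to D and 690.4, 719.7, 813.6 and 830.8 in the quadruple KO. WT B and WT C were the lowest libraries. Its log2 difference was 0.37 (SE 0.18, 95% interval -0.035 to 0.78, limma adjusted p = 0.308). With WT A and WT D alone the differences were -0.083 for Cnga3 and 0.055 for Cngb3. The ratio of Cnga3 to Cngb3 was 0.699, 1.39, 1.17 and 0.549 in WT A to D and 0.560, 0.628, 0.542 and 0.527 in the quadruple KO, so that only WT B and WT C exceeded 1. The log2 ratio differed by -0.66 over all libraries and by -0.14 against WT A and WT D, also a description chosen after the values were seen.

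The same 2 WT libraries stood on 1 side of the other WT libraries for 8 of the 10 genes. Libraries B and C of WT were both above WT A and WT D for Arr3, Gnat2, Pde6h and Cnga3, and both below for Opn1sw, Gnb3, Pde6c and Cngb3. Only Opn1mw and Gngt2 were mixed. The log2 difference of WT B and C from WT A and D was largest for Pde6h at 0.69 and Cngb3 at -0.64. It was -0.25 for Pde6c, and Pde6c was still called when WT was limited to libraries A and D (log2 difference 1.25, limma adjusted p = 0.0259). The part of the low mitochondrial share, the lower depth and the higher summed counts of WT B and WT C in the spread of the other genes was not tested.

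**Figure D3:**
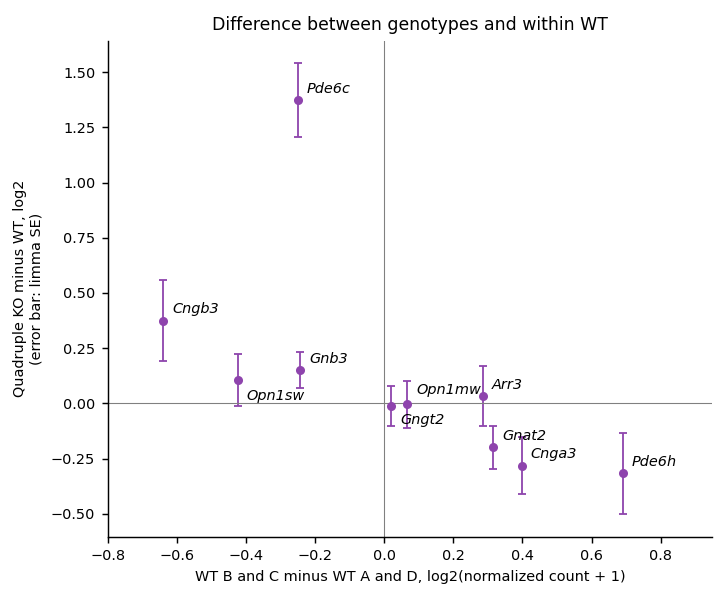
For each cone gene, the difference of WT B and C from WT A and D (x axis) against the difference of quadruple KO from WT (y axis, error bar SE), both in log2(normalized count + 1) and sharing the WT libraries. Pde6c lies apart at 1.37 on the y axis, and the other 9 genes lie between -0.32 and 0.37.

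Across the 8 libraries the genes formed opposing sets, which is a description over samples that share depth, scaling and the pair of WT libraries. The highest Pearson correlations of log2 values were 0.95 for Gnat2 with Pde6h, 0.91 for Opn1sw with Gnb3, 0.89 for Gnb3 with Cngb3 and 0.87 for Pde6h with Cnga3. The lowest were -0.93 for Gnb3 with Cnga3 and -0.90 for Pde6h with Cngb3. The cone genes did not vary as one block in these libraries.

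Levels were compared between genes per kilobase of the main transcript. In WT the order was Opn1sw (5482 normalized counts per kilobase), Gnb3 (3571), Gnat2 (2228), Arr3 (1828), Opn1mw (1523), Gngt2 (613.6), Pde6h (331.3), Pde6c (280.7), Cngb3 (128.2) and Cnga3 (99.9). The neighbours Gnat2 and Arr3, Arr3 and Opn1mw, Pde6h and Pde6c, and Cngb3 and Cnga3 overlapped between libraries. In the quadruple KO, Pde6c stood at 736.7 per kilobase, above Pde6h at 258.2 and with a range that overlapped that of Gngt2 at 607.8. The order of the other 9 genes was that of WT. With the length of all annotated exons in place of the main transcript, Opn1mw, Gnat2 and Arr3 changed places.

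Each cone gene was set beside its rod counterpart in the same libraries. Of the 11 listed rod genes none was called, their median log2 difference was 0.13, and they ran from -0.23 for Gnb1 to 0.28 for Gngt1. Without overlap between the genotypes, 3 of the 11 were higher and 0 lower in the quadruple KO, beside 6.16% and 3.58% of all genes tested. Pde6a had a difference of 0.079, Pde6b of -0.082 and the rod inhibitory subunit Pde6g of 0.10, beside 1.37 for Pde6c and -0.32 for Pde6h. Per kilobase, Pde6a exceeded Pde6c 65.5 times in WT and 26.3 times in the quadruple KO, and Pde6b did so 91.0 and 32.5 times. For the remaining pairs, rhodopsin exceeded Opn1sw 31.8 and 35.4 times, Sag exceeded Arr3 57.5 and 65.1 times, and Gnat1 exceeded Gnat2 55.9 and 77.3 times in WT and in the quadruple KO. The summed cone genes came to 2.55% ± 0.055 (SD, n = 4) of the summed rod genes per kilobase in WT and to 2.43% ± 0.083 (SD, n = 4) in the quadruple KO, with overlapping ranges of 2.48% to 2.61% and 2.32% to 2.50%.

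**Figure D4:**
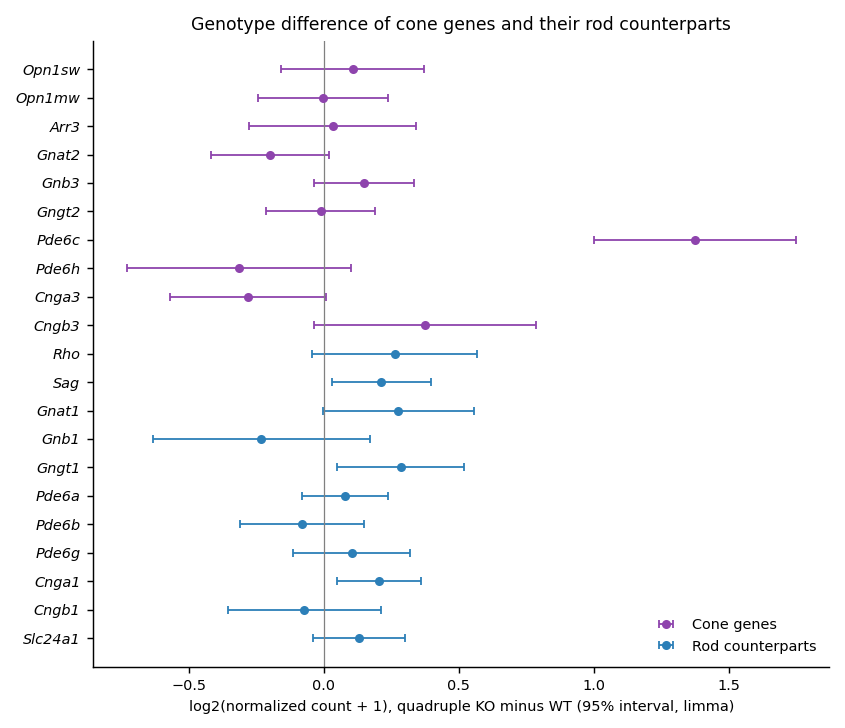
Quadruple KO minus WT in log2(normalized count + 1) for the 10 cone genes and 11 rod counterparts, with limma's 95% interval (x axis). Pde6c is the only gene near 1.37, and the other 20 lie between -0.32 and 0.37.

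Genes that adjust the cascade in rods and cones were listed apart, 12 in all, among them kinases, RGS proteins, guanylate cyclases and their activators. None was called, the median was 0.096, and the differences ran from -0.0028 for the opsin kinase Grk1 to 0.68 for the calcium sensor recoverin, Rcvrn. Without overlap between the genotypes, 2 of the 12 were higher and 0 lower in the quadruple KO, beside 6.16% and 3.58% of all genes tested. Rcvrn had 21979, 10322, 12423 and 22826 normalized counts in WT A to D and 23914 to 27633 in the quadruple KO (limma adjusted p = 0.301), and WT B and WT C were its lowest libraries. Of the 9 transcription factors of photoreceptor fate none was called, with a median of -0.098. Without overlap between the genotypes, 3 of them were higher and 1 was lower in the quadruple KO, beside 6.16% and 3.58% of all genes tested. They ran from -0.38 for Thrb, a thyroid hormone receptor needed for Opn1mw expression, to 0.60 for Otx2, a homeodomain factor of photoreceptors and bipolar cells. Thrb had 2290, 4531, 4006 and 2222 in WT A to D and 2271 to 2517 in the quadruple KO, so its WT B and WT C values again stood alone. Otx2 had 4368, 2672, 2815 and 4761 in WT A to D and 5124 to 5629 in the quadruple KO (limma adjusted p = 0.301).

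Markers of other cells in the dissected tissue are given as sums beside Pde6c, and none of them was called. The 5 measured markers of the retinal pigment epithelium summed to 2116 to 6574 normalized counts in WT and 2418 to 3734 in the quadruple KO, with Rpe65 not analysed here, and ran from -0.32 for Ttr to 0.54 for Best1. The 3 measured lens markers summed to 57.3 to 1411 in WT and 29.5 to 1096 in the quadruple KO, with Bfsp2 and Mip not analysed here, and ran from -0.86 for Cryaa to 0.47 for Bfsp1. The 6 markers of Mueller glia ran from -0.36 for Glul to 0.17 for Slc1a3, with sums of 130060 to 189108 and 131312 to 145740. The 5 ganglion cell markers ran from -0.43 for Rbpms to 0.29 for Pou4f1, with sums of 21591 to 24204 in WT and 17430 to 20576 in the quadruple KO that do not overlap. Nefl made up most of these sums, with 15589 to 17480 in WT and 12746 to 14807 in the quadruple KO. Without overlap, 3 of the 5 were lower and 0 higher in the quadruple KO, beside 3.58% and 6.16% of all genes tested. The 13 mitochondrially encoded mRNAs had a median difference of 0.84, from -0.046 for mt-Nd6 to 1.20 for mt-Nd2. The part of these cells or mRNAs in the difference of Pde6c was not tested.

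**Figure D5:**
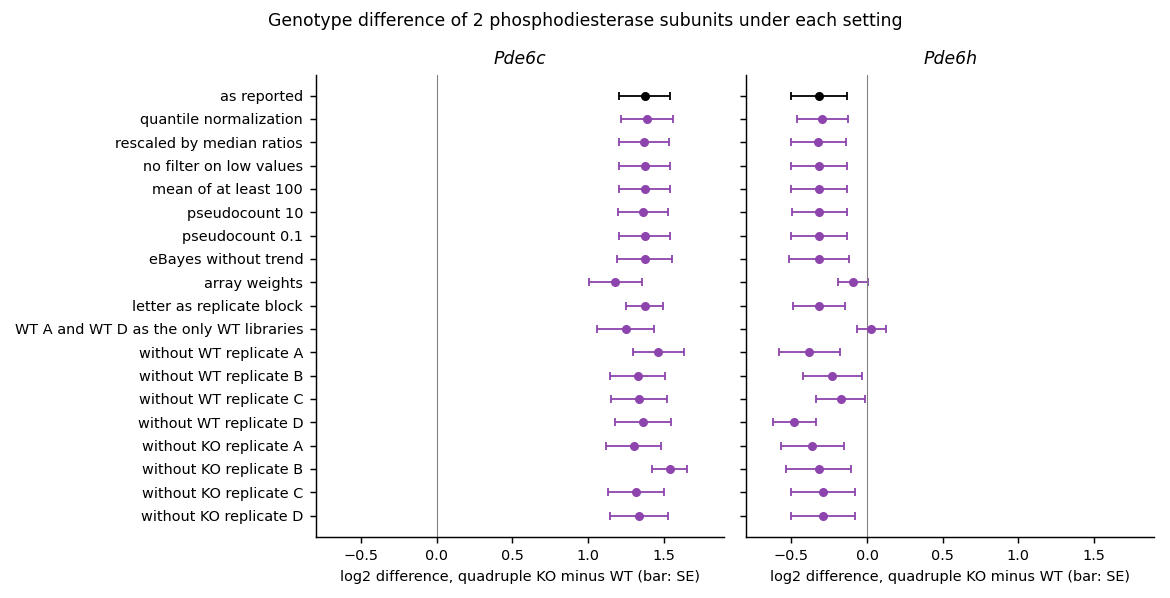
Quadruple KO minus WT log2 difference with its SE (x axis) for Pde6c and Pde6h as reported (black) and under 18 alternative settings, which include leaving out each library in turn. Pde6c stayed between 1.18 and 1.54, whereas Pde6h ran from -0.48 to 0.028.

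Pde6c was called under all 18 alternatives, with adjusted p from 0.000534 to 0.0339. It rested on no single library: the difference ran from 1.30 without KO A to 1.54 without KO B. None of the other 9 genes was called under any alternative.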

How the data were processed

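Retina samples from 4 WT and 4 quadruple KO mice, per the labels, were sequenced as total RNA with a directional kit, after retinae had been pooled for extraction. Per the labels and the study's methods, the authors used Trim Galore 0.6.7 for trimming, STAR 2.7.9a for alignment to GRCm39, Salmon 1.5.2 for estimated gene counts and DESeq2 1.32.0 for normalization. The authors deposited normalized counts per library in 1 table of 18058 genes, whose lowest mean is 8.50. Its 5 columns with the authors' own comparison (log2 fold change, standard error, statistic, p-value and adjusted p-value) were not used. Raw counts could not be recovered, since 50.3% to 72.4% of low values lay within 0.1 read of a whole step. Therefore limma 3.58.1 in R 4.3.3 (eBayes with trend) was run on log2(normalized count + 1) for genes with a mean of at least 10. Single genes and the opsin ratio were compared by exact two-sided permutation tests. On simulated data for this comparison with 17636 genes, 166 of 200 changed genes were recovered with 5 false calls. The planted changes were all larger than the differences of the cone genes other than Pde6c. Noise was drawn independently for each gene, without the departure shared by WT B and WT C. The simulation therefore does not describe the recovery of smaller differences or the false calls under such a shared departure. The 10 genes and all lists were chosen with earlier results of these data known. Of each list the genes with the highest and lowest difference are named, beside the rod counterparts paired with each cone gene. Alternatives were another scaling, filter, pseudocount or weighting, a replicate block, and leaving out libraries. Gene positions and transcript lengths are from the GENCODE annotation of GRCm39. No counting intervals are given for normalized counts, and libraries with a higher depth have less counting error.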

Additional observations from a re-analysis of the deposited data

Results flagged for a closer look

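The ratio of Pde6c to Pde6b in KO B was 0.0204, beside 0.0302 to 0.0316 in the other quadruple KO libraries. It was singled out because its gap to the nearest library was 0.874 of the range of the group, above Dixon's critical value for 4 samples at the 95% level. For the Pde6c count itself, where KO B had 1321 normalized counts, the gap was 0.823 of the range, just under that value. All 30 groups of 4 libraries (10 genes and 5 ratios in both genotypes) were examined, and chance alone marks about 1 in 20 groups. KO B still lay above all 4 WT libraries in both measures.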

How the results depend on the processing

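Pde6c kept its direction and its call under all 18 alternatives, and the count of called cone genes stayed at 1. The median of the 10 genes ran from -0.021 to 0.063. The 77 genes called over the table became 143 with array weights, which gave WT B and WT C weights of 0.164 and 0.156, and 56 to 89 when 1 library was left out. With the library letter as a replicate block 51 genes were called and Pde6c remained among them (adjusted p = 0.0111). The deviations of libraries that share a letter had correlations of -0.0097, -0.11, 0.098 and 0.050 for A to D. The departure shared by WT B and WT C enters these values, and the labels state no pairing. Whether the letters pair the samples can therefore not be told from them. Some differences that had not passed the test changed sign. With quantile normalization Opn1mw was at 0.012 and Gngt2 at 0.0039. With array weights Opn1sw was at -0.056 and Gngt2 at 0.018. With WT limited to libraries A and D, Opn1sw was at -0.11, Opn1mw at 0.029, Pde6h at 0.028 and the opsin ratio at -0.13 (exact permutation p = 0.533). When 1 library was left out, Opn1mw ran from -0.058 to 0.071, Arr3 from -0.055 to 0.14, Gngt2 from -0.059 to 0.042 and the opsin ratio from -0.016 to 0.25. None of these differences passed the test under any setting, and the causes were not tested. The table holds few genes under the filter on low values, so an analysis without the filter adds little. All cone genes had at least 386.5 normalized counts in every library, and the part of depth in their differences was not tested.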

Other observations

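The genes whose pattern over the 8 libraries was most like the mean of the 10 cone genes were Slc24a1 (Pearson r of 0.977), Elmod2 (0.977), Rdh12 (0.959), Eepd1 (0.958) and Pfkfb2 (0.954), out of genes with a mean of at least 100. Slc24a1 is the rod sodium-calcium-potassium exchanger and Rdh12 a retinol dehydrogenase of photoreceptors. Their own log2 differences between the genotypes were 0.13 for Slc24a1, 0.16 for Elmod2, 0.17 for Rdh12, 0.16 for Eepd1 and 0.20 for Pfkfb2, and none was called (limma adjusted p from 0.301 to 0.390). The correlations describe 8 libraries that share their scaling and the pair WT B and WT C, and they are given without a test. Pde6c enters the mean of the 10 cone genes with a log2 difference of 1.37, whereas the other 9 lie between -0.32 and 0.37. Those 9 also formed opposing sets, so the mean does not stand for the pattern of each cone gene.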
